A study of Mus musculus with 12 samples.

Results

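Pou5f1, Sox2 and Klf4, 3 of the transcription factor genes used to turn fibroblasts into induced pluripotent stem (iPS) cells, were followed by their array signals in neurospheres, pluripotent cells and fibroblasts of the mouse. Every probe set that the array's annotation assigns to one of these genes and to no other was taken. The 3 genes, of 18193 named by the array's single-gene probe sets, were covered by 4 of its 45101 probe sets, 1417945_at for Pou5f1, 1416967_at for Sox2, and 1417394_at and 1417395_at for Klf4. The 4 probe sets all passed the filter on low values, a signal of 20 on at least 1 array. Pou5f1 reached 20 on 8 of 12 arrays, Sox2 on 11, and both Klf4 probe sets on 12.

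The 12 arrays fall into 7 groups. Neurospheres are aggregates of neural stem and progenitor cells that grow in suspension. The series title speaks of direct induction, and the induced cultures were neurospheres derived from adult fibroblasts (replicate 1 with EGF and cAMP, replicate 2 with LIF) and from embryonic fibroblasts (replicate 3 with LIF, replicate 4 with LIF and cAMP). LIF is a cytokine that acts through STAT3 and maintains mouse embryonic stem (ES) cells. The pluripotent cells were the iPS line 38C2 (replicate 1) and the ES line EB3 (replicate 2), 1 array each, and each line was also measured as primary and as secondary neurospheres, on 1 array each and numbered in the same way. The references of neural and fibroblast identity were GE neurospheres, grown from the embryonic ganglionic eminence of the forebrain at day 14, and adult skin fibroblasts, on 1 array each. All animals were C57BL/6, with the strain of the pluripotent lines not named, and no age is given for the adult donors. The labels name no additive for the other cultures, no gene introduced into the fibroblasts and no clone. An introduced copy of a member and the gene's own transcript were not told apart here, and the annotation used does not say where in a transcript a probe set lies. Arrays of one group differ in line or medium, and nothing says that they come from repeat cultures, so a p-value here reflects no more than how far these arrays lie apart, which may be technical.

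Oct4, the protein of Pou5f1, is a POU-domain factor of the early embryo and of pluripotent cells, and neural differentiation silences its gene. Sox2 is an HMG-box factor that binds composite elements with Oct4 in pluripotent cells, and it stays on in neural stem cells, where it works with other partners. Klf4 is a zinc-finger factor of GC-rich sites. It is expressed in pluripotent cells, where LIF and STAT3 induce it in the mouse, and also in skin fibroblasts and epithelia.

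In the RefSeq annotation of GRCm38.p6, Pou5f1 lies at chr17:35506032-35510777 on the plus strand, Sox2 at chr3:34649995-34652461 on the plus strand and Klf4 at chr4:55527137-55532475 on the minus strand. Sox2 lies within the span of Sox2ot, a long noncoding RNA gene at chr3:34560381-34677993. The 250 bases before each start are shown because base composition is a feature that the choice of members did not use. Capitals mark the GC box GGGCGG, read on both strands.
Pou5f1, chr17:35505782-35506031, plus strand: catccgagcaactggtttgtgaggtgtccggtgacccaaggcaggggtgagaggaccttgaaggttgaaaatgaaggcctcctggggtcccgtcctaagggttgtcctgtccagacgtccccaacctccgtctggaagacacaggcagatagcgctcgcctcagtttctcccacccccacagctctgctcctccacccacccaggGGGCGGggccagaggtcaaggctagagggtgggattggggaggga
Sox2, chr3:34649745-34649994, plus strand: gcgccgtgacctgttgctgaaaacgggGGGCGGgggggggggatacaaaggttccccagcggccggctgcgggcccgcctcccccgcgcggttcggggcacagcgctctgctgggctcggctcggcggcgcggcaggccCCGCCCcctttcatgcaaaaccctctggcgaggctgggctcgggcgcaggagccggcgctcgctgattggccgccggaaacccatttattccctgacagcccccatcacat
Klf4, chr4:55532476-55532725, minus strand: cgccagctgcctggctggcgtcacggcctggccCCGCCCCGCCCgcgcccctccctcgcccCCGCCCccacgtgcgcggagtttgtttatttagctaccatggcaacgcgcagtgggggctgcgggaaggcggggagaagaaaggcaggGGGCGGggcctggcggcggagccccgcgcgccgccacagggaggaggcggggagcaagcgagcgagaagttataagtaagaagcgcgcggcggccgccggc
All 3 genes matched a RefSeq promoter window of 300 bases, from 250 before to 50 after the start. The window held 1 GC box for Pou5f1, 2 for Sox2 and 4 for Klf4, and 35.6% of 32817 windows held at least 1. G and C made up 62.7% of the Pou5f1 window, 66.3% of the Sox2 window and 74.3% of the Klf4 window, against a median of 52.7% over all windows. CG dinucleotides numbered 11, 27 and 40 in the same order, against a median of 7. The nuclear receptor element AGGTCA occurred once each for Pou5f1 and Sox2 and was not found for Klf4 (16.3% of windows held it), and CCAAT likewise occurred once each for Pou5f1 and Sox2 (37.4% of windows). None of the 3 windows held the octamer ATGCAAAT (1.74% of windows) or TATAAA (13.6%). All motifs were read on both strands, and no overlap with another motif was removed. A second RefSeq window for Pou5f1, away from the gene's start, was not used.

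Values are MAS5 signals on a linear scale, with a trimmed mean of 100 on every array as deposited. Differences are on the scale log2(signal + 5), which understates the change of a low signal. A difference is called when its Benjamini-Hochberg adjusted p over all 28378 probe sets tested is under 0.05 with limma. Between 40.5% and 49.1% of probe sets reached 20 on an array. All 6 fibroblast markers and no pluripotent marker reached 20 in the adult fibroblasts, all 5 pluripotent markers did in both pluripotent cultures, and all 7 neural stem markers did in the GE, primary and secondary neurospheres. The fibroblast-derived neurospheres had summed neural stem marker signals of 344 to 1026.5, against 13318.6 in GE neurospheres. Their astrocyte markers Gfap and Aqp4 stayed below 20, and 5 to 7 of the 7 neural stem markers reached it. Low Gfap was not particular to them, since it was below 20 on every array but that of GE neurospheres (356.7). Aqp4 was 23.5 and 21.1 in primary and 74.5 and 360.8 in secondary neurospheres. In pluripotent cells the neural stem sums were 385 (iPS) and 150 (ES), with 4 and 3 of the 7 markers at 20 or more. The embryonic-derived sums of 399 and 344 were thus near that of the iPS cells.

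**Figure D1:**
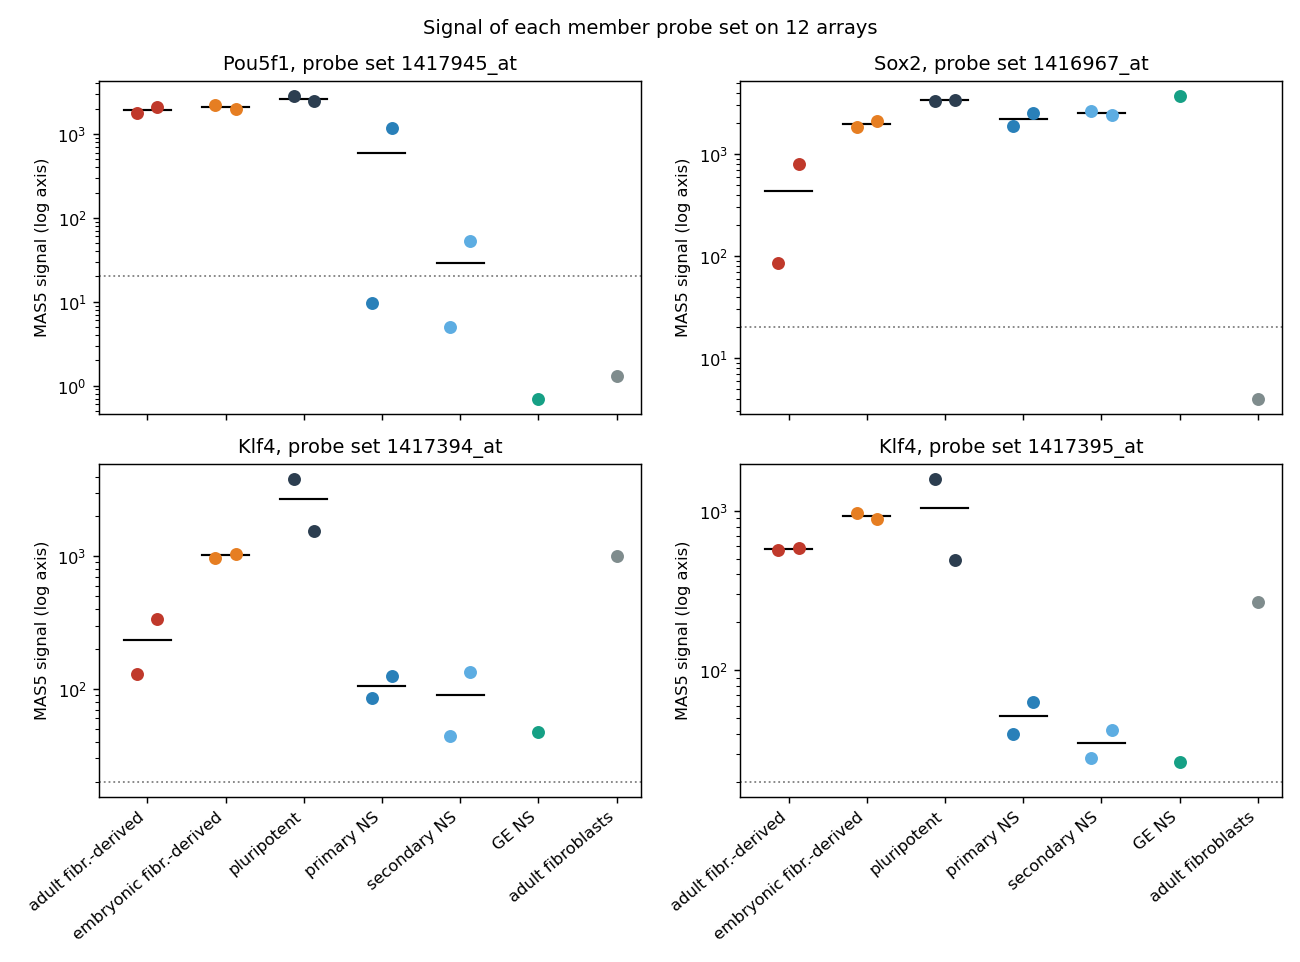
MAS5 signal (log axis) of the 4 member probe sets, 1 panel each, in 7 groups, with 1 point per array, a bar at the mean of groups with 2 arrays and a dotted line at 20. Pou5f1 is at 1787.0 or more on the 4 fibroblast-derived and both pluripotent arrays, and Sox2 is below 20 on the adult fibroblast array alone.

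Pou5f1 was high in every fibroblast-derived culture. Its signal was 1787.0 and 2069.2 in adult fibroblast-derived neurospheres, 2217.8 and 1981.2 in embryonic fibroblast-derived neurospheres, 2817.5 and 2462.2 in pluripotent cells, 0.7 in GE neurospheres and 1.3 in adult fibroblasts. All 4 fibroblast-derived arrays lay below both pluripotent arrays and far above the GE and fibroblast arrays, and the adult-derived and embryonic-derived ranges overlapped. The group means were 1928.1 ± 200 in adult-derived neurospheres, 2099.5 ± 167 in embryonic-derived neurospheres and 2639.8 ± 251 in pluripotent cells (SD, n = 2 each). Adult-derived neurospheres exceeded adult fibroblasts by 8.26 ± 1.97 (SE) on the log2 scale (limma adjusted p = 0.0222) and GE neurospheres by 8.40 ± 1.97 (limma adjusted p = 0.0177). Embryonic-derived neurospheres exceeded GE neurospheres by 8.53 ± 1.97 (limma adjusted p = 0.0153). Pluripotent cells exceeded adult fibroblasts by 8.71 ± 1.97 (limma adjusted p = 0.00893). With signals of 0.7 and 1.3 on the low side, these sizes depend on the added 5 and are given as no fold. Leaving out 1 of the arrays of the fibroblast-derived pair ended each of their 3 calls, with values between 8.15 and 8.61 and limma adjusted p between 0.0593 and 0.0782.

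Against pluripotent cells the difference of Pou5f1 was not called. It was -0.45 in adult-derived neurospheres, with a 95% interval of -4.09 to 3.18 (limma adjusted p = 0.873), and -0.33 in embryonic-derived neurospheres, with an interval of -3.96 to 3.30 (limma adjusted p = 0.914). The spread behind these intervals is shared by all groups of a fit, and the pair of primary neurospheres lies far apart. Without the primary neurospheres in the fit, the SE of both differences fell to 0.66 from the 1.61 with them, and the adjusted p was 0.667 for adult-derived and 0.762 for embryonic-derived neurospheres. Adult-derived and embryonic-derived neurospheres differed by -0.12 (interval -3.76 to 3.51, limma adjusted p = 0.99).

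Secondary neurospheres had less Pou5f1 than the pluripotent cells, and the primary arrays of the 2 lines lay far apart. In the iPS line it was 2817.5 in pluripotent cells, 9.6 in primary and 5.0 in secondary neurospheres. In the ES line it was 2462.2 in pluripotent cells, 1174.1 in primary and 53.4 in secondary neurospheres. The ES-derived primary array was far above the iPS-derived one, whose signal of 9.6 lies below 20, so no fold is given. The mean of the secondary pair of 29.2 ± 34.2 differed from the pluripotent mean by -6.77 ± 1.61 on the log2 scale (limma adjusted p = 0.00929), and without the iPS-derived secondary array the difference was -5.50 (limma adjusted p = 0.0616). Primary neurospheres differed from pluripotent cells by -4.33 ± 1.61 (limma adjusted p = 0.0762), which the line as a replicate block brought under the threshold (adjusted p = 0.0213), as did leaving out the ES-derived primary array (-7.50, adjusted p = 0.000728). Per line, on 1 array each and with no test, primary minus pluripotent was -7.59 for iPS and -1.07 for ES, and secondary minus primary was -0.55 for iPS and -4.34 for ES. Secondary and GE neurospheres differed by 2.08 ± 1.97 (interval -2.36 to 6.53, limma adjusted p = 0.64). The iPS against ES difference over the 3 stages was -2.90 ± 1.05 (limma adjusted p = 0.345). The summed signal of the 5 pluripotent markers moved with Pou5f1. It was 49 in iPS-derived and 6254.6 in ES-derived primary neurospheres, and 36.5 in iPS-derived and 608 in ES-derived secondary neurospheres. Dppa5a alone gave 4501.9 of the sum in ES-derived primary and 487.0 in ES-derived secondary neurospheres. In these, 5 and 3 of the 5 markers reached 20. In such bulk RNA, fewer pluripotent cells and less transcript per cell cannot be told apart.

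Sox2 was present in all neurospheres and pluripotent cells and near the floor in fibroblasts alone. Its signal was 85.6 and 791.4 in adult fibroblast-derived neurospheres, 1825.8 and 2092.3 in embryonic fibroblast-derived neurospheres, 3352.6 and 3417.7 in pluripotent cells, 1907.6 and 2546.9 in primary neurospheres, 2627.5 and 2409.3 in secondary neurospheres, 3703.2 in GE neurospheres and 4.0 in adult fibroblasts. The adult-derived pair was the lowest of all neurospheres and was itself spread over a 9.25-fold range. Its lower array was replicate 1, labelled with EGF and cAMP. Neighbours in the order from GE through pluripotent, secondary, primary and embryonic-derived cultures lay close together. The primary range spans the secondary range in part and the embryonic-derived range in part.

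Adult-derived neurospheres exceeded adult fibroblasts in Sox2 by 4.90 ± 0.93 (limma adjusted p = 0.00914), and pluripotent cells exceeded adult fibroblasts by 8.56 ± 0.93 (limma adjusted p = 0.000405). Adult-derived neurospheres were lower than pluripotent cells, at -3.66 ± 0.76 (limma adjusted p = 0.0131), and lower than GE neurospheres, at -3.79 ± 0.93 (limma adjusted p = 0.0208). Their size rests on replicate 1. Without it the differences were -2.09 (limma adjusted p = 0.00425) and -2.22 (limma adjusted p = 0.00336), with the remaining array still below all others but the fibroblasts. Without the ES array the difference from pluripotent cells was -3.64 (adjusted p = 0.0602). For embryonic-derived neurospheres the difference was -0.79 ± 0.76 from pluripotent cells (interval -2.50 to 0.92, limma adjusted p = 0.502) and -0.92 ± 0.93 from GE neurospheres (interval -3.01 to 1.17, limma adjusted p = 0.529). With either adult-derived array left out, these same values of -0.79 and -0.92 were called, with adjusted p between 0.0301 and 0.0352. Adult-derived minus embryonic-derived was -2.87 ± 0.76 and not called (limma adjusted p = 0.219). Without adult-derived replicate 2 it was -4.43 (limma adjusted p = 0.00267), and without adult-derived replicate 1 it was -1.30.

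No Sox2 difference was called along differentiation. Primary neurospheres differed from pluripotent cells by -0.62 (interval -2.32 to 1.09, limma adjusted p = 0.582), and secondary neurospheres by -0.43 (interval -2.13 to 1.28, limma adjusted p = 0.68). Secondary minus GE neurospheres was -0.56 (interval -2.65 to 1.53, limma adjusted p = 0.814), and iPS minus ES origin was -0.11 (interval -0.54 to 0.32, limma adjusted p = 0.855).

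Sox2ot, whose span holds Sox2, followed another pattern (it was chosen after its values were seen). Its probe set 1460587_at had 12.8 and 6.6 in adult-derived neurospheres, 25.5 and 32.8 in embryonic-derived neurospheres, 6.3 and 16.7 in pluripotent cells, 209.2 and 114.2 in primary neurospheres, 187.2 and 153.1 in secondary neurospheres, 263.4 in GE neurospheres and 0.2 in adult fibroblasts. The 5 arrays of the primary, secondary and GE neurospheres were all at 114.2 or more, and no other array exceeded 32.8. The difference was -4.22 ± 0.52 for adult-derived minus GE neurospheres (limma adjusted p = 0.00102) and -2.98 ± 0.52 for embryonic-derived minus GE neurospheres (limma adjusted p = 0.0043). It was 3.35 ± 0.42 for primary minus pluripotent (limma adjusted p = 0.000954) and 3.48 ± 0.42 for secondary minus pluripotent (limma adjusted p = 0.000421). Fibroblast-derived neurospheres thus carried Sox2 signal with little of the Sox2ot signal of the other neurospheres, and so did pluripotent cells. Sox2ot minus pluripotent was not called, at -0.12 ± 0.42 in adult-derived (limma adjusted p = 0.868) and 1.12 ± 0.42 in embryonic-derived neurospheres (limma adjusted p = 0.092).

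Klf4 has 2 probe sets, which are read separately. On 1417394_at the signal was 130.6 and 339.7 in adult-derived neurospheres, 980.7 and 1050.8 in embryonic-derived neurospheres, 3823.7 and 1561.8 in pluripotent cells, 85.2 and 124.8 in primary neurospheres, 43.9 and 134.8 in secondary neurospheres, 47.0 in GE neurospheres and 998.9 in adult fibroblasts. Pluripotent cells were highest, the embryonic-derived pair bracketed the adult fibroblasts, and the primary, secondary and GE arrays were low. The lower adult-derived array was within the range of the secondary pair. On 1417395_at the signal was 569.0 and 583.8 in adult-derived neurospheres, 976.6 and 897.0 in embryonic-derived neurospheres, 1586.8 and 493.6 in pluripotent cells, 39.6 and 63.3 in primary neurospheres, 28 and 42.3 in secondary neurospheres, 26.5 in GE neurospheres and 269.3 in adult fibroblasts. Here all 4 fibroblast-derived arrays lay inside the wide pluripotent range and above the adult fibroblasts.

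Both probe sets were lower in the neurospheres of the pluripotent lines than in the pluripotent cells. Primary minus pluripotent was -4.50 ± 0.61 on 1417394_at (limma adjusted p = 0.00128) and -4.01 ± 0.48 on 1417395_at (limma adjusted p = 0.000737). Secondary minus pluripotent was -4.89 ± 0.61 on 1417394_at (limma adjusted p = 0.000463) and -4.50 ± 0.48 on 1417395_at (limma adjusted p = 0.000233). Unlike the arrays of Pou5f1, both lines had low Klf4 signals already in primary neurospheres. Secondary minus GE neurospheres was not called, at 0.67 (interval -1.0 to 2.34, adjusted p = 0.701) on 1417394_at and 0.33 (interval -1.0 to 1.65, adjusted p = 0.833) on 1417395_at. The iPS minus ES difference over the 3 stages was -0.25 (interval -1.41 to 0.91, limma adjusted p = 0.877) on 1417394_at and 0.18 (interval -0.92 to 1.28, limma adjusted p = 0.916) on 1417395_at.

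Embryonic-derived neurospheres had Klf4 above the GE array on both probe sets, by 4.29 ± 0.74 on 1417394_at (limma adjusted p = 0.00425) and by 4.90 ± 0.59 on 1417395_at (limma adjusted p = 0.00077). Adult-derived neurospheres exceeded GE neurospheres by 4.21 ± 0.59 on 1417395_at (limma adjusted p = 0.00174), while the difference of 2.06 ± 0.74 on 1417394_at was not called (limma adjusted p = 0.0841). Against pluripotent cells, adult-derived neurospheres were lower, at -3.50 ± 0.61, on 1417394_at (limma adjusted p = 0.00629), with -0.62 ± 0.48 on 1417395_at (interval -1.70 to 0.47, limma adjusted p = 0.408). The value on 1417395_at was -1.45 (adjusted p = 0.039) without the ES array and 0.22 without the iPS array. Embryonic-derived minus pluripotent was -1.26 ± 0.61 on 1417394_at (interval -2.63 to 0.10, limma adjusted p = 0.172) and 0.08 ± 0.48 on 1417395_at (interval -1.0 to 1.16, limma adjusted p = 0.931). Against adult fibroblasts the 2 probe sets pointed opposite ways in adult-derived neurospheres, -2.22 ± 0.74 on 1417394_at (limma adjusted p = 0.0704) and 1.08 ± 0.59 on 1417395_at (limma adjusted p = 0.234), and neither was called. With a common median for the arrays, -2.63 on 1417394_at was called (limma adjusted p = 0.0294). Pluripotent cells minus adult fibroblasts was 1.29 ± 0.74 (limma adjusted p = 0.212) and 1.70 ± 0.59 (limma adjusted p = 0.0508) in the same order, the second being called with the line as a replicate block (adjusted p = 0.0495). Adult-derived minus embryonic-derived was -2.24 ± 0.61 on 1417394_at (limma adjusted p = 0.227) and -0.69 ± 0.48 on 1417395_at (limma adjusted p = 0.699). Fibroblast markers summed to 1023.2 and 2717.1 in adult-derived neurospheres, with 5 and 6 of 6 at 20 or more, and to 24936.9 in adult fibroblasts, with 6 of 6, and their part in the Klf4 signal was not tested.

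**Figure D2:**
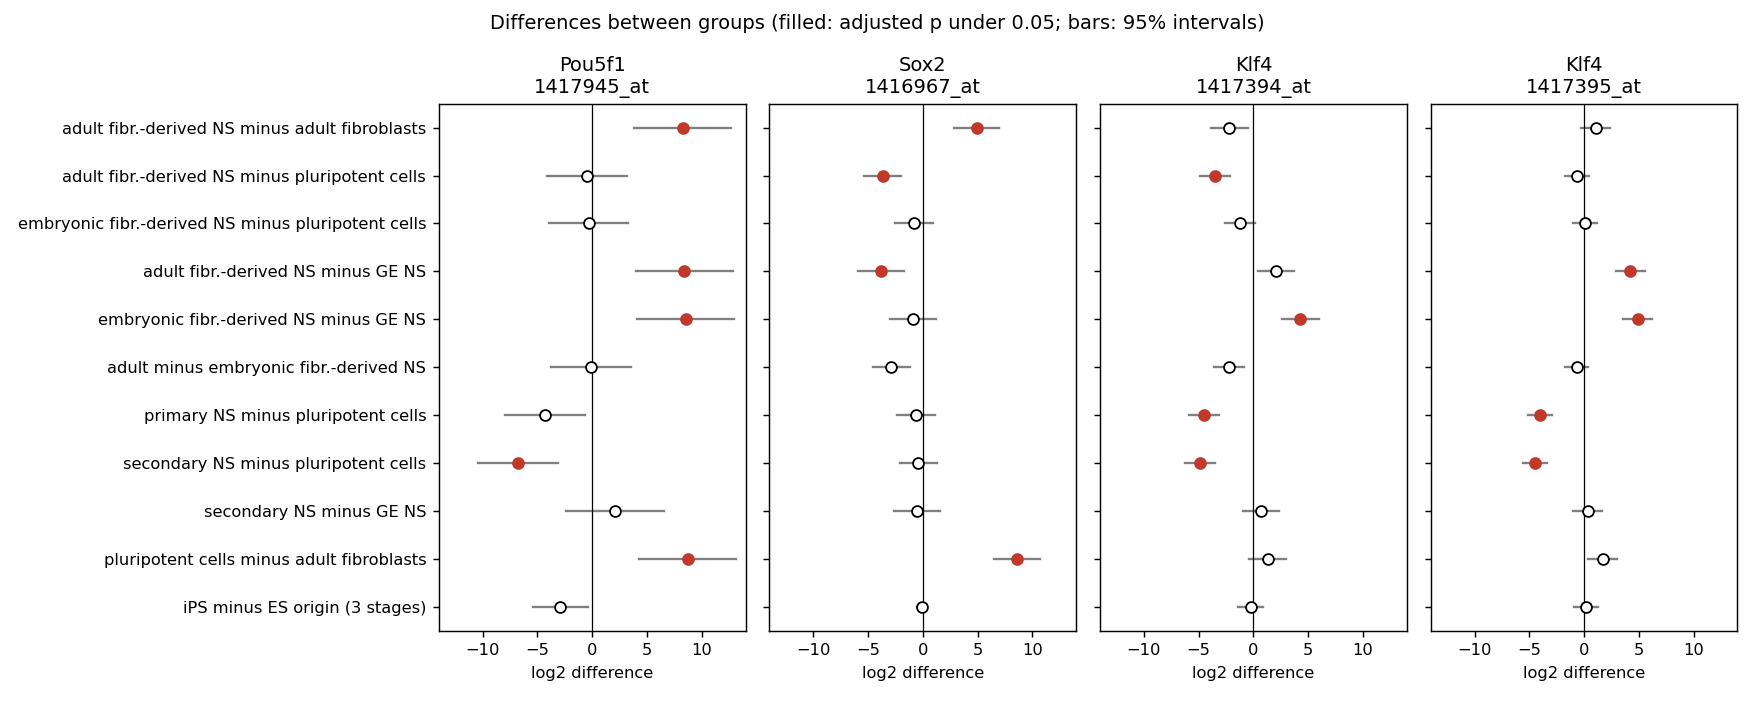
Log2 difference of each member probe set in 11 comparisons, drawn as points with 95% intervals, filled red where the adjusted p was under 0.05. Sox2 and the 2 Klf4 probe sets differ in where they are called, and the Pou5f1 intervals are the widest.

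The 2 Klf4 probe sets stood in a different ratio in the fibroblast-derived cultures. The signal of 1417395_at over that of 1417394_at on the same array was 4.36 and 1.72 in adult-derived neurospheres, 0.996 and 0.854 in embryonic-derived neurospheres, 0.415 and 0.316 in pluripotent cells, 0.465 and 0.507 in primary neurospheres, 0.638 and 0.314 in secondary neurospheres, 0.564 in GE neurospheres and 0.27 in adult fibroblasts. All 4 fibroblast-derived arrays had ratios above all 8 others. On the log2(signal + 5) scale the difference between the probe sets averaged 0.66 ± 1.04 (SD, n = 4) in fibroblast-derived neurospheres and -1.20 ± 0.47 (SD, n = 8) elsewhere. These differ by 1.85, given as a description with no test, since the split was noticed in these values and 6 of the 8 other arrays come from 2 lines. The 3' to 5' signal ratios of the control transcripts Actb (1.25 to 1.52 over all arrays) and Gapdh (0.709 to 0.897) overlapped between the fibroblast-derived and the other arrays.

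**Figure D3:**
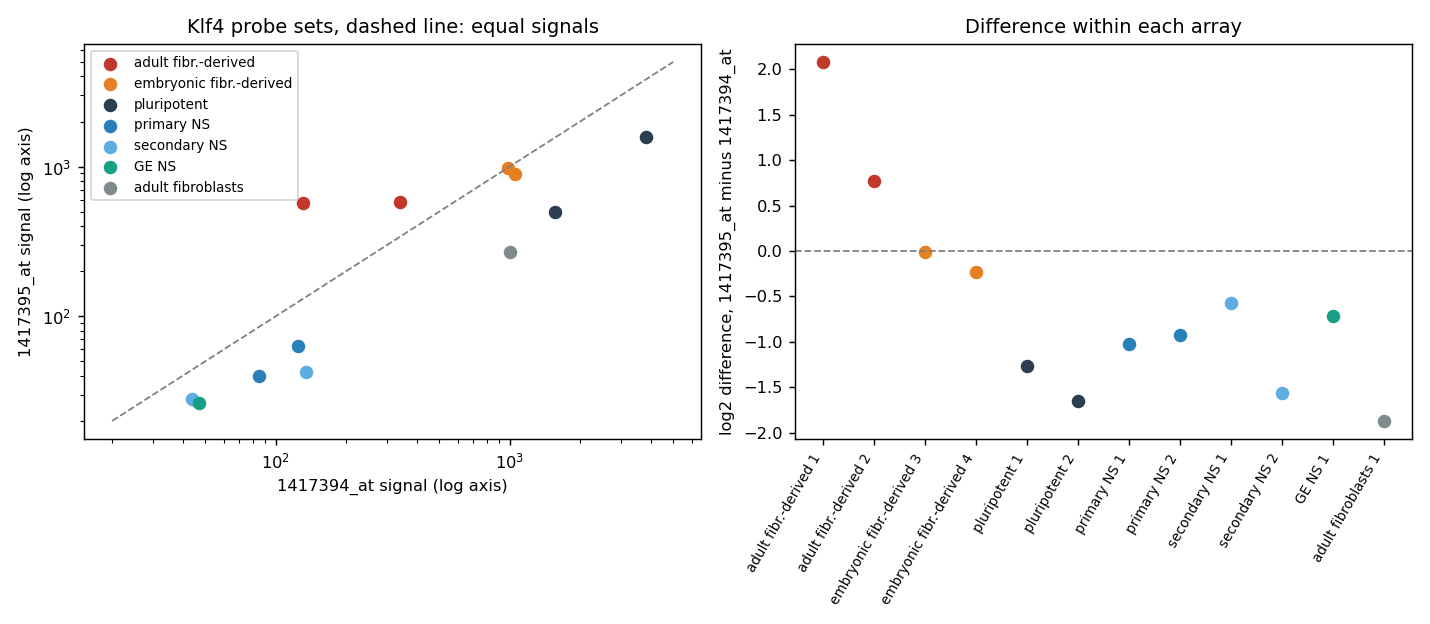
Left, signals of the 2 Klf4 probe sets on each array (log axes, dashed line at equal signals), coloured by group; right, their log2 difference within each array. The 4 fibroblast-derived arrays have the 4 highest differences, led by adult-derived replicate 1.

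Counted over the 4 probe sets, members were called in 7 of 11 comparisons. Against adult fibroblasts 2 of 4 were called higher in adult-derived neurospheres (Pou5f1 and Sox2), where 17.3% of all probe sets tested were called in either direction, and the same 2 were called higher in pluripotent cells, where 34.3% were. Against pluripotent cells 2 of 4 were called lower in adult-derived neurospheres (Sox2 and Klf4 1417394_at), where 17.6% of probe sets were called, and 0 of 4 in embryonic-derived neurospheres, where 20.6% were. Against GE neurospheres 3 of 4 were called in adult-derived neurospheres (Pou5f1 and Klf4 1417395_at higher, Sox2 lower; 19.8% of probe sets) and 3 of 4 in embryonic-derived neurospheres (all but Sox2, higher; 21.6%). In primary neurospheres 2 of 4 were called lower than in pluripotent cells (both Klf4 probe sets; 26.2%) and in secondary neurospheres 3 of 4 (all but Sox2; 42.2%). No member was called between secondary and GE neurospheres (3.28%), between adult-derived and embryonic-derived neurospheres (0.349%) or by iPS against ES origin (0.0670%). Several of these comparisons share arrays, so their counts are not separate evidence.

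Myc, the other factor of the original reprogramming set, and Nanog, a homeobox factor of the pluripotency network, were measured beside the members. Myc had 280.8 and 260.9 in adult-derived neurospheres, 421.7 and 573.0 in embryonic-derived neurospheres, 45.6 and 276.3 in pluripotent cells and 258.1 in adult fibroblasts. On this probe set no difference of Myc was called in the 11 comparisons, the nearest being embryonic-derived minus pluripotent at 2.06 ± 0.65 (limma adjusted p = 0.052). Any other Myc probe set was not read here and may differ. Nanog had 145.2 and 401.6 in adult-derived neurospheres, 1453.7 and 1844.9 in embryonic-derived neurospheres, 2778.6 and 2389.6 in pluripotent cells and 5.6 in adult fibroblasts. Nanog was not called in adult-derived neurospheres against adult fibroblasts (4.54 ± 2.13, limma adjusted p = 0.173), although both arrays lay above the fibroblast array. Its primary pair, at 0.2 and 648.0, lay far apart and enters this shared SE, as for Pou5f1. Embryonic-derived neurospheres exceeded GE neurospheres in Nanog by 7.76 ± 2.13 (limma adjusted p = 0.0311).

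A list of 15 genes known as targets of Oct4 and Sox2 or members of their network in ES cells was set beside Pou5f1. Genes were represented by their brightest probe set, and the share of all probe sets called in either direction is given beside each count. In pluripotent cells 14 of 15 were called higher than in adult fibroblasts, with a median difference of 6.84 against 0.04 for all genes, where 34.3% of all probe sets were called. In adult-derived neurospheres 5 of 15 were called higher than in adult fibroblasts (median 3.68, all genes 0.21; 17.3% of all probe sets), namely Sall4, Fbxo15, Nr0b1, Fgf4 and, named after its value was seen, Tdgf1, of which Sall4, a zinc-finger partner of Oct4, rose by 6.45 ± 1.0 (limma adjusted p = 0.00431). Against pluripotent cells 0 of 15 were called in embryonic-derived neurospheres (median -0.99, all genes 0.16; 20.6%). This does not place them at the pluripotent level. Primary pairs far apart enter the shared SE here too, such as 8.1 and 856.5 for Zfp42 and 24.8 and 4501.9 for Dppa5a. Zfp42, the lowest of the 15 relative to pluripotent cells, had 346.1 and 475.5 in embryonic-derived neurospheres against 3057.6 and 4298.9. In adult-derived neurospheres, with the same limit, 3 of 15 were called lower than in pluripotent cells (median -2.82, all genes 0.14). Of all 28378 probe sets 17.6% were called there in either direction, 1488 of them lower and 3505 higher. The 3 were Esrrb, an orphan nuclear receptor (-4.14 ± 0.73, limma adjusted p = 0.00678), Tcl1, an Akt coactivator (-4.30 ± 0.96, limma adjusted p = 0.0174), and Zfp42, the naive-state marker Rex1 (-6.95 ± 1.74, limma adjusted p = 0.0263). Against GE neurospheres 3 of 15 were called higher in adult-derived neurospheres (Sall4, Nr0b1 and Fbxo15; median 2.69, all genes 0.05). Of all 28378 probe sets 19.8% were called there in either direction, 2829 of them higher and 2789 lower. In embryonic-derived neurospheres 9 of 15 were called higher than in GE neurospheres (median 5.78, all genes 0.06; 21.6%). In primary neurospheres 9 of 15 were called lower than in pluripotent cells (median -4.01, all genes 0.05; 26.2%) and in secondary neurospheres 14 of 15 (median -6.03, all genes 0.14; 42.2%), the exception being Dppa5a.

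Array by array, the median of these genes lay farther below the pluripotent mean than Pou5f1 on all 4 fibroblast-derived arrays, by most on the adult-derived pair. In adult-derived replicate 1, Pou5f1 was at -0.56 relative to the pluripotent mean on the log2 scale while the median of the 15 genes was -3.94, and 15 of 15 were below both pluripotent arrays. In adult-derived replicate 2, Pou5f1 was at -0.35 and the median at -2.10, with 14 of 15 below both. In embryonic-derived replicates 3 and 4, Pou5f1 was at -0.25 and -0.41 and the medians at -1.12 and -0.94, with 13 and 12 of 15 below both. In the ES-derived primary neurospheres, Pou5f1 was at -1.16 and the median at -1.98, a gap like that of the embryonic-derived arrays, with 14 of 15 below both. In the iPS-derived primary neurospheres, Pou5f1 was at -7.50 and the median at -6.14, with 15 of 15 below both. Such counts are thus not particular to the fibroblast-derived arrays. The share of all genes below both pluripotent arrays was not taken, so the counts have no background beside them. These are descriptions of single arrays with no test. The pluripotent marker list, whose 5 genes are all among the 15, summed to 541 and 4418.3 in adult-derived and to 7798.7 and 8619.4 in embryonic-derived neurospheres, against 13451.8 and 14356.7 in the pluripotent cells.

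**Figure D4:**
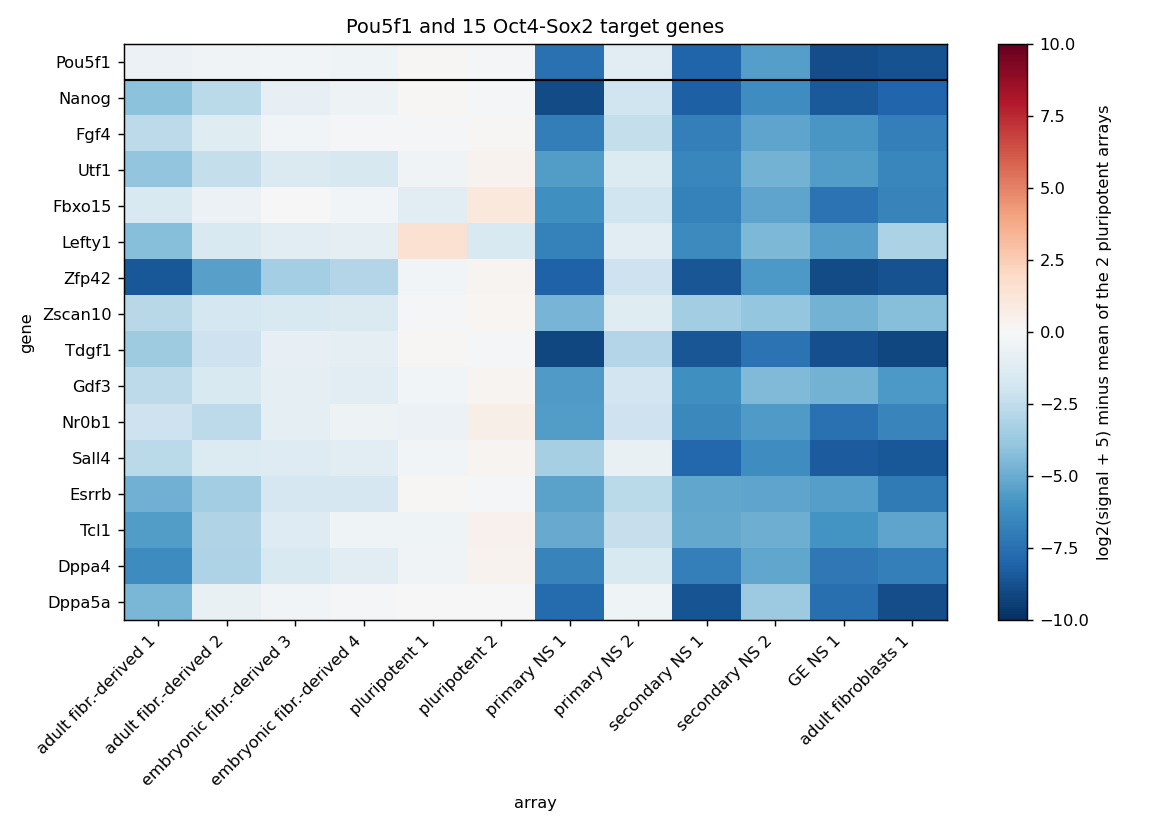
Heat map of log2(signal + 5) minus the mean of the 2 pluripotent arrays for Pou5f1 (top row) and 15 target genes, 1 column per array. In adult-derived replicate 1 the Pou5f1 cell is at -0.56 while the 15 genes range between -8.48 and -1.55.

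Relatives of the members from the same families were read as lists. Of 14 other POU genes 8 had a probe set that entered the tests. Against GE neurospheres 3 of these 8 were called lower in both kinds of fibroblast-derived neurospheres, the neural factors Pou3f2, Pou3f3 and Pou3f4 (19.8% of all probe sets called for adult-derived and 21.6% for embryonic-derived neurospheres). Pou3f3 had 12.8 and 66.5 in adult-derived neurospheres, 11.2 and 12.8 in embryonic-derived neurospheres and 1478.6 in GE neurospheres. The differences from GE neurospheres were -5.38 ± 0.75 for adult-derived (limma adjusted p = 0.00175) and -6.45 ± 0.75 for embryonic-derived neurospheres (limma adjusted p = 0.00069). In primary and in secondary neurospheres 4 of 8 were called higher than in pluripotent cells, these 3 and Pou6f1 (26.2% of all probe sets called in primary and 42.2% in secondary neurospheres). None of the 8 relatives was called higher in fibroblast-derived than in GE neurospheres.

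Of 4 other SoxB genes 3 were tested, the neural factors Sox1, Sox3 and Sox21. Against GE neurospheres 2 of these 3, Sox3 and Sox21, were called lower in both kinds of fibroblast-derived neurospheres. Of all probe sets 19.8% were called for adult-derived and 21.6% for embryonic-derived neurospheres, in either direction. Sox3 was at -3.06 ± 0.76 in adult-derived (limma adjusted p = 0.0216) and at -3.88 ± 0.76 in embryonic-derived neurospheres (limma adjusted p = 0.00725). Sox1 had 287.0 and 272.3 in adult-derived neurospheres and 0.1 in adult fibroblasts, a difference of 5.80 ± 1.33 (limma adjusted p = 0.0193). It also had 209.6 in the iPS cells, with 4.4 in the ES cells and 71.7 in GE neurospheres. Adult-derived minus pluripotent was not called for Sox1 (2.66 ± 1.09, limma adjusted p = 0.123). All 3 were called higher in primary and in secondary neurospheres than in pluripotent cells (26.2% and 42.2% of all probe sets called), where Sox2 itself was not called.

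Of 16 other Klf genes 13 were tested. Klf2 and Klf5, which share functions with Klf4 in mouse ES cells, were among those called lower than in pluripotent cells in primary neurospheres (5 of 13 lower, 0 higher; 26.2% of all probe sets called) and in secondary neurospheres (4 lower, 3 higher; 42.2%). The count in secondary neurospheres is not far from that background. Klf2 was -4.83 ± 1.12 in primary minus pluripotent (limma adjusted p = 0.0146) and Klf5 -3.79 ± 0.64 (limma adjusted p = 0.00363). Klf5 was called higher in adult-derived neurospheres than in GE neurospheres (4.08 ± 0.79, limma adjusted p = 0.00753) and than in adult fibroblasts (2.75 ± 0.79, limma adjusted p = 0.042). In embryonic-derived neurospheres Klf5 was likewise called higher than in GE neurospheres (3.98 ± 0.79, limma adjusted p = 0.0077). Klf2 had 46.7 and 155.9 in adult-derived neurospheres and 1592.4 and 1687.2 in pluripotent cells, -4.17 ± 1.12 (limma adjusted p = 0.0345). Klf3, a repressor, was called higher in both kinds of fibroblast-derived neurospheres than in pluripotent cells, by 1.64 ± 0.16 in adult-derived (limma adjusted p = 0.000637) and 1.49 ± 0.16 in embryonic-derived neurospheres (limma adjusted p = 0.000682).

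Of 9 factors of early lineages that Oct4 and Sox2 hold back in ES cells 6 were tested. Gata3, a factor of trophoblast and other lineages, had 19.9 and 49.5 in adult-derived neurospheres, 26.8 and 33.3 in embryonic-derived neurospheres, 80.5 and 39.9 in primary neurospheres, 66.5 and 49.1 in secondary neurospheres, and 0.6 on both pluripotent arrays. The signals lie near the filter of 20, and the fibroblast-derived arrays overlap with or lie below the primary and secondary neurospheres. It was called higher in fibroblast-derived neurospheres than in pluripotent cells, by 2.72 ± 0.45 in adult-derived (limma adjusted p = 0.00514) and 2.64 ± 0.45 in embryonic-derived neurospheres (limma adjusted p = 0.00505), and likewise in primary and in secondary neurospheres. The 1 of 6 called is close to the 17.6% and 20.6% of all probe sets and says nothing particular about these factors. Against GE neurospheres 2 of 6 were called higher in adult-derived neurospheres (Gata3 and Gata6; 19.8% of all probe sets) and 3 of 6 in embryonic-derived neurospheres (with Eomes; 21.6%). The spongiotrophoblast marker Tpbpa had 1324.5 and 687.2 in embryonic-derived neurospheres and was below 20 on all other arrays, and its part in these values was not tested.

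Across the 12 arrays, which share cell lines and lie in few groups, the members followed each other unevenly on the log2 scale. Pearson's r was 0.205 for Pou5f1 and Sox2, 0.585 for Pou5f1 and Klf4 1417394_at, 0.782 for Pou5f1 and Klf4 1417395_at, -0.117 for Sox2 and Klf4 1417394_at, -0.203 for Sox2 and Klf4 1417395_at, and 0.860 for the 2 Klf4 probe sets. The genes most like Pou5f1 were L1td1 (r = 0.993), Mtm1 (0.984), Eras (0.977), Fbxo15 (0.976) and Dsg2 (0.975), and without the GE and fibroblast arrays, the 2 farthest from the median, r stayed between 0.965 and 0.992 over the 10 left. L1td1 encodes an RNA-binding protein and Eras a Ras-family protein, both of ES cells. The most unlike were Slc4a3 (-0.938), Fam8a1 (-0.938) and 2810414N06Rik (-0.934).

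The genes most like Sox2 were Dtx1 (r = 0.959), Miga1 (0.951), Sall1 (0.950), Zfp318 (0.939) and Cep72 (0.919). Without adult-derived replicate 1 and the fibroblast array, r was 0.910 for Dtx1, an E3 ligase of Notch signalling, and 0.369 to 0.608 for the other 4, so those rest on these 2 arrays. The most unlike were P2ry2 (-0.975), Glce (-0.944) and Snai1 (-0.933), which were at -0.755, -0.477 and -0.484 in the same order without these 2 arrays. The genes most like Klf4 1417394_at were Galt (0.968), Cdk5rap3 (0.964), Tmem39a (0.960), Guca1a (0.951) and Prorsd1 (0.939), with r between 0.892 and 0.958 without the pluripotent arrays, and the most unlike were Zfp963 (-0.974), Mtx3 (-0.960) and Tdrd3 (-0.956). For 1417395_at, read in the same way although it is the dimmer Klf4 probe set, Tnip1 (0.973) and Socs3 (0.970) came first.

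Between media, 1 array stood against 1, with no test. In adult-derived neurospheres EGF and cAMP minus LIF was -0.21 for Pou5f1, -3.14 for Sox2, -1.35 for Klf4 1417394_at and -0.04 for Klf4 1417395_at. In embryonic-derived neurospheres LIF and cAMP minus LIF was -0.16 for Pou5f1, 0.20 for Sox2, 0.10 for Klf4 1417394_at and -0.12 for Klf4 1417395_at. The 2 contrasts change different agents, so the adult-derived values cannot be assigned to any 1 agent.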

How the data were processed

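Total RNA of 12 mouse cultures, extracted with Trizol per the labels' protocols, was measured on Affymetrix arrays. Per the submitters' processing notes, the authors used MAS5, with no version stated, and Affymetrix Expression Console 1.1. The deposited signal intensities are linear, not logarithms. Their 2%-trimmed mean was 100 on each array, which hides a change in total RNA. Detection calls were not used, and the number of arrays limits the precision.

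From these, log2(signal + 5) was fitted with limma 3.58.1 in R 4.3.3 (lmFit, eBayes with trend, 2-sided). One fit held 12 arrays in 7 groups (5 residual and 4.15 prior degrees of freedom), so groups of 1 array were assumed to vary like groups of 2. Each of the 28378 probe sets that reached 20 on at least 1 array was tested on its own. For iPS against ES origin, 6 arrays were fitted with a stage term (residual degrees of freedom 2, prior 4.81). On simulated data the comparison of adult-derived neurospheres with pluripotent cells returned its known changes. Of non-control probe sets 34945 had 1 symbol, 932 several and 9160 none. Sequences are from RefSeq, GRCm38.p6.

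Members, lists and tests were chosen with earlier results of these data known. Named besides the members were Nanog and Myc, per comparison up to 4 called genes of each list by smallest adjusted p, the 5 genes most and 3 least correlated with each member, and genes said to be chosen after their values were seen. The same number marks the same line in pluripotent cells, primary and secondary neurospheres, so the numbers pair these arrays. Deviations from the group means correlated at 0.264, 0.0945 and 0.417 between the stages. The alternatives tried were pseudocounts of 1 and 20, a common median, quantile normalization, no filter and a filter at 100, the brightest probe set per gene, no trend, the line as a block, the primary neurospheres left out, and each array left out.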

Additional observations from a re-analysis of the deposited data

Results flagged for a closer look

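The change between primary and secondary neurospheres ran in opposite directions in the 2 pluripotent lines for Sox2 and for Klf4 1417394_at. On the log2 scale, secondary minus primary was 0.46 in the iPS line and -0.08 in the ES line for Sox2, and -0.88 in the iPS line and 0.11 in the ES line for Klf4 1417394_at. Each value rests on 1 array per stage, and the difference between the lines was not tested.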

How the results depend on the processing

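Of 901 values of the member probe sets under the alternatives, 866 kept their direction and their side of the threshold, 8 fell short of it, 16 newly passed it and 11 changed sign, with 0 of these 11 called at first. Quantile normalization turned Pou5f1 in embryonic-derived minus pluripotent to 0.04. A common median turned Klf4 1417395_at there to -0.38, and brought under the threshold Klf4 1417394_at there (-1.72, adjusted p = 0.0474) and in adult-derived minus fibroblast (-2.63), and Klf4 1417395_at in pluripotent minus fibroblast (1.64). That last difference also passed with a pseudocount of 20 (1.65), a filter at 100 (1.70) and the line as a replicate block (1.70). The block also called Pou5f1 in primary minus pluripotent (-4.33) and changed no other call of the members. With 1 array left out, values ranged as follows. Pou5f1 ranged between 8.15 and 8.36 for adult-derived minus fibroblast, 8.30 and 8.51 for adult-derived minus GE, 8.44 and 8.61 for embryonic-derived minus GE, -7.50 and -1.16 for primary minus pluripotent, and -8.04 and -5.50 for secondary minus pluripotent. Sox2 ranged between -5.23 and -2.09 for adult-derived minus pluripotent, -0.89 and -0.69 for embryonic-derived minus pluripotent, -1.02 and -0.82 for embryonic-derived minus GE, -4.43 and -1.30 for adult-derived minus embryonic-derived, and -0.22 and 0.05 for iPS minus ES. Klf4 1417394_at ranged between -0.09 and 1.43 for secondary minus GE and between -1.02 and 0.38 for iPS minus ES. Klf4 1417395_at ranged between -1.45 and 0.22 for adult-derived minus pluripotent, -0.76 and 0.92 for embryonic-derived minus pluripotent, 0.86 and 2.54 for pluripotent minus fibroblast, and -0.57 and 0.58 for iPS minus ES. Adult-derived and embryonic-derived replicates, the secondary iPS array and the ES array were those whose loss ended a call, which leaves fewer arrays in the fit. For other changes the cause was not tested. The difference between the Klf4 probe sets ranged between 1.38 and 2.15 with 1 array left out, and was 1.91 with a pseudocount of 1 and 1.69 with 20, alternatives chosen after seeing the data.

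Counts of all probe sets called moved by over 1.5 times in 52 of 228 cases. The 99 between adult-derived and embryonic-derived neurospheres ranged from 7 to 198 and the 19 by iPS or ES origin from 1 to 45. A common median moved the share of calls that were higher in adult-derived neurospheres than in fibroblasts to 35.9%, from 62.9%, and the median of all probe sets to -0.12, from 0.24. In secondary minus pluripotent it moved the share to 36.4%, from 60.6%, and the median to -0.30, from 0.19. The share moved likewise to 41.1%, from 70.2%, in adult-derived minus pluripotent, to 35.6%, from 68.6%, in embryonic-derived minus pluripotent, to 48.6%, from 64.5%, in primary minus pluripotent, and to 47.6%, from 60.9%, in secondary minus GE. Signals near 1, such as Pou5f1 in GE neurospheres and fibroblasts, have no detection call here, so their differences give a direction but no reliable size.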
